A study of Mus musculus with 12 samples.

Results

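The Akr1c family comprises the aldo-keto reductases of subfamily 1C, and its members were taken as the rows of the deposited table whose gene symbol is Akr1c6, Akr1c12, Akr1c13, Akr1c14, Akr1c18, Akr1c19, Akr1c20 or Akr1c21. All 8 were found among the 30743 rows. They were chosen by symbol alone, but the family was put forward with the authors' fold changes between the diets in view, and those values play no part in what follows. The RNA came from whole livers of male C57BL/6J fetuses at 15 ± 0.5 days post coitum (dpc), 6 from dams on the control diet (13.5 kcal% fat) and 6 from dams on HFD (60 kcal% fat), each diet given for 12 to 14 weeks. The labels do not say which fetuses shared a dam, and whole liver at this stage mixes hepatocytes with blood-forming, endothelial and mesenchymal cells. What was used here is 1 value per gene, the authors' average log2 CPM (counts scaled to 1000000 reads) over all 12 livers. The authors' fold changes and p-values were not used, so HFD and control livers are not compared below, and no value has an SD.

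Aldo-keto reductases are soluble enzymes that use NADPH or NADH to reduce carbonyl groups to alcohols, or to run the reverse reaction. Members of subfamily 1C act on steroid hormones, prostaglandins, bile acid precursors and foreign compounds, and in liver they are counted among the enzymes that inactivate steroids before conjugation. In the mouse the genes lie side by side in 1 cluster, and close copies can take up each other's sequencing reads.

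The Akr1c genes lie on chromosome 13 of GRCm38 (mm10) within 538 kb. From the proximal end, Akr1c14 spans 4049011 to 4090688 (plus strand), Akr1c18 spans 4132615 to 4150654 (minus strand), and Akr1c13 spans 4191150 to 4205596 (plus strand). Akr1c19 follows from 4228700 to 4252843 (plus strand), and Akr1c12 from 4268176 to 4279433 (minus strand). After a gap lie Akr1c6 from 4434306 to 4457877 (plus strand), Akr1c20 from 4486849 to 4523345 (minus strand) and Akr1c21 from 4574075 to 4586541 (plus strand). All 8 encode a coding sequence of 969 bases without the stop codon, or 323 codons, so that CPM and CPM per kilobase of coding length give the same order and the same ratios between members.

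The coding sequences fell into 2 close pairs and 4 members further apart. Akr1c12 and Akr1c13 matched at 96.2% of the 969 bases, differing at 37, and Akr1c6 and Akr1c20 matched at 92.3%, differing at 75. The other 26 of the 28 pairs matched at 71.1% to 78.7%. The coding bases 343 to 402, which start in exon 3 of 9 in every member and run into the next exon, are printed because they are the 60-base stretch in which Akr1c12 and Akr1c13 differ most. Capitals mark bases that differ from Akr1c13, and the sequences were read from the GENCODE M21 transcripts.
Akr1c13: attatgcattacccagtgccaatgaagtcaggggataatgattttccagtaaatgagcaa
Akr1c12: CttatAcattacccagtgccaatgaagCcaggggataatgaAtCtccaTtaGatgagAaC
Akr1c19: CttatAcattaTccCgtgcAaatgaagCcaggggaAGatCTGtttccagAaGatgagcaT
Akr1c6: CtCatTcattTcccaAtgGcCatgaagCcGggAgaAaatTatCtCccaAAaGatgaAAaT
Akr1c20: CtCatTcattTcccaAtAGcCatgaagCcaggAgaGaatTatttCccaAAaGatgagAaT
Akr1c14: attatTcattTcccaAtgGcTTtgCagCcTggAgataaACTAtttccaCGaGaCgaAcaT
Akr1c21: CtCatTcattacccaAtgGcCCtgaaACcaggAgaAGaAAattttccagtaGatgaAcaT
Akr1c18: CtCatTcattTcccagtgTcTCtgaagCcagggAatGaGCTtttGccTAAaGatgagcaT
Akr1c12 differed from Akr1c13 at 9 of the 60 bases, Akr1c19 at 14 and the other members at 17 to 20. Over the whole coding sequence Akr1c19 was the next closest to both, at 77.8%.

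**Figure D1:**
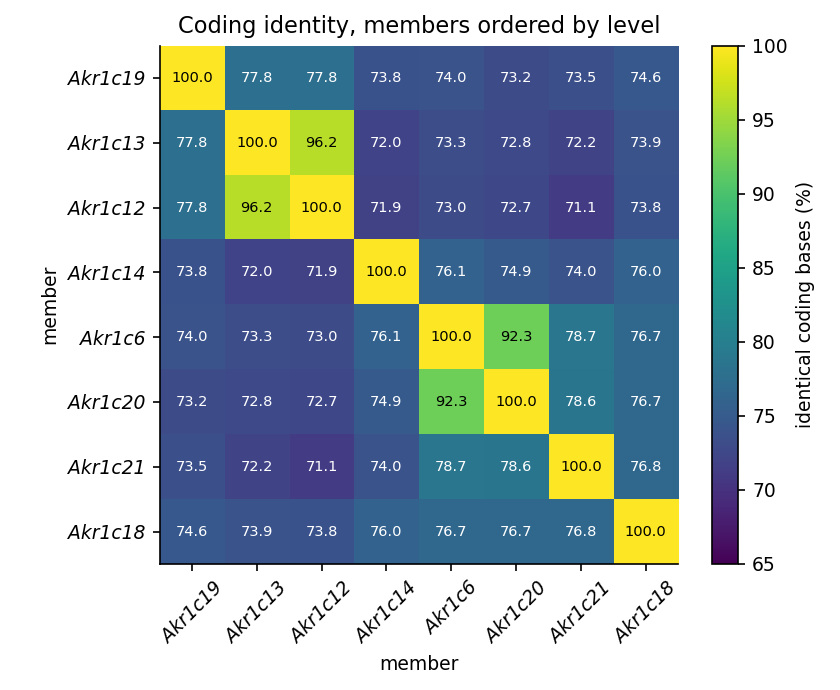
Percentage of identical coding bases for every pair of Akr1c genes, members ordered by level from highest to lowest on both axes and colour giving the same percentage as the number. Akr1c12 with Akr1c13 (96.2%) and Akr1c6 with Akr1c20 (92.3%) stand out from the other pairs, which reach at most 78.7%.

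Reads that fit more than 1 gene follow from this likeness. Of the 920 windows of 50 bases in the coding sequence of Akr1c13, 37.2% occurred unaltered in Akr1c12, and of the 870 windows of 100 bases 15.4% did. The longest run of identical coding bases between these genes was 228. Akr1c6 and Akr1c20 shared 3.04% of their 50-base coding windows and none of 100 bases. The 1 transcript chosen for each of Akr1c14, Akr1c19 and Akr1c21 shared no 50-base window with an annotated transcript of another gene, which leaves out exons that belong to their other transcripts, and Akr1c18 shared 0.761% of its coding windows with Akr1cl, a relative on another chromosome. The read length, the counting tool and the treatment of reads with several alignments are not given in the sources used here, so the levels of Akr1c12 and Akr1c13 are uncertain, both in their split and, if shared reads were dropped or counted more than once, in their sum. The sum as deposited was 107 CPM, or 53.0% of the summed level of the family.

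The family's transcripts were held almost wholly by 5 of the 8 genes. Akr1c19 and Akr1c13 were the highest, with authors' average values of 70.5 and 70.2 CPM, or 72.7 and 72.5 CPM per kilobase of coding length. Akr1c12 followed at 36.5 CPM and Akr1c14, a 3-alpha-hydroxysteroid dehydrogenase, at 17.6 CPM. Akr1c6, a 17-beta-hydroxysteroid dehydrogenase known from adult liver, lay at 5.66 CPM. The remaining members, Akr1c20, Akr1c21 and Akr1c18, lay at 0.373, 0.305 and 0.203 CPM. The summed level was 201 CPM, of which Akr1c19 held 35.0%, Akr1c13 34.9%, Akr1c12 18.1%, Akr1c14 8.73% and Akr1c6 2.81%.

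The order of the levels can be read only against the counting error, since the spread between livers is not known here. Genes without reads hold 0.152 CPM in the table, a floor left by the prior count that edgeR, the authors' tool, adds to each library. From this floor the reads of each member, summed over the 12 livers and scaled to a mean library, were solved. They came to 11079 for Akr1c19, with an exact 95% Poisson interval of 10874 to 11287. For Akr1c13 they came to 11044, with an interval of 10839 to 11252. These neighbours in the order did not differ beyond counting error. Akr1c12 had 5722 reads (interval 5575 to 5872), Akr1c14 2746 (2644 to 2851) and Akr1c6 868 (811 to 928), and none of these intervals overlapped its neighbours'. Intervals cover counting error only, and the variation between livers would widen them. They also leave out the uncertain split of shared reads between Akr1c12 and Akr1c13.

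**Figure D2:**
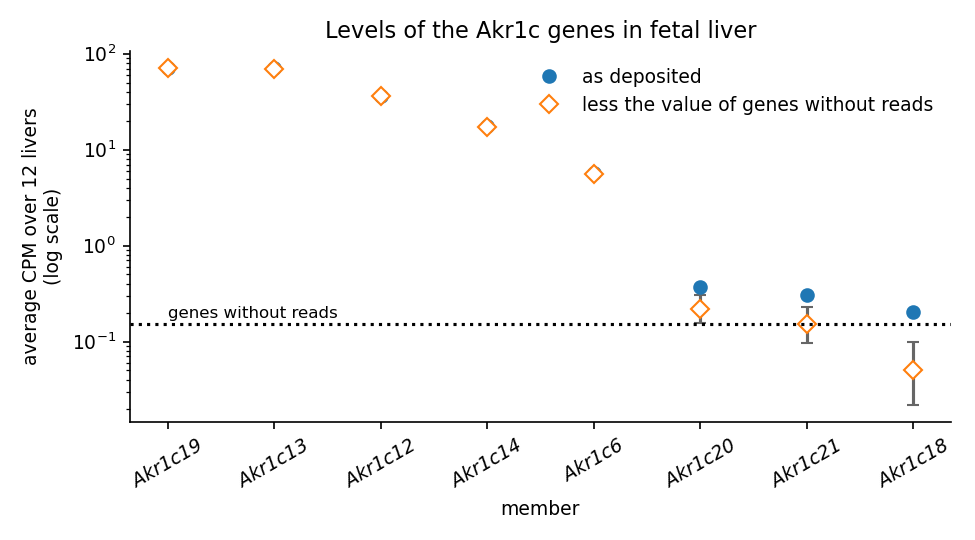
Average level over the 12 livers of each Akr1c gene in CPM on a log axis, as deposited (filled circles) and after subtraction of the value of genes without reads (open diamonds, bars giving exact 95% Poisson intervals of the recovered reads). Akr1c19 and Akr1c13 lie level at about the same height, and Akr1c20, Akr1c21 and Akr1c18 lie near the dotted line of genes without reads at 0.152 CPM.

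Akr1c20, Akr1c21 and Akr1c18 were at the edge of detection. Akr1c20, the close copy of Akr1c6, had 35 reads in all livers together (exact 95% Poisson interval 24.4 to 48.7), or 2.90 per liver. Akr1c21, a 3(17)-alpha-hydroxysteroid dehydrogenase known from kidney, had 24 reads (15.4 to 35.7), and its interval overlapped that of Akr1c20. Akr1c18, the 20-alpha-hydroxysteroid dehydrogenase that inactivates progesterone, had 8 reads (3.45 to 15.8), an interval that overlapped that of Akr1c21 narrowly and not that of Akr1c20. Together the 3 genes held 0.438% of the family's summed level, or 0.212% once the floor was subtracted from every member. With the floor subtracted, Akr1c6 stood 25.0-fold above Akr1c20 although they matched at 92.3% of coding bases, whereas Akr1c13 stood 1.93-fold above Akr1c12. Akr1c6 and Akr1c20 share 3.04% of their 50-base coding windows. What part of the 35 reads of Akr1c20 could come from such windows was not tested.

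Low values in this table cannot be read as absence. Of 10 hepatocyte markers, 8 lay above 1 CPM, led by Alb, Afp and Apoa1, but the others were low. Serpina1a lay at 0.184 CPM, and Hnf4a, a transcription factor that defines hepatocytes, was listed at the value of genes without reads. The endothelial markers Pecam1 and Tek were listed there too, while Cdh5, Kdr, Lyve1 and Stab2 were above 1 CPM. Among 11 widely expressed genes, chosen after such values had been seen, Eef1a1, Actb and Sdha led, and 2 lay under 1 CPM, Tbp at 0.638 CPM and Ppia at 0.165 CPM. Low values were not confined to the bottom of the scale. Gapdh lay at 5.20 and Ywhaz at 4.70 CPM beside Actb at 2581 CPM, and the erythroid gene Alas2 at 0.704 beside Slc4a1 at 12037 CPM (examples chosen after their values were seen). Whether the counting lowered any Akr1c gene or any relative outside the family was not tested. The order of the members and their place among their relatives carry this limit. In bulk liver, moreover, fewer cells of a type and less RNA per cell cannot be told apart.

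Against all genes, the upper members of the family were moderately abundant. Among the 19652 rows with reads, Akr1c19 lay at percentile 88.8, Akr1c13 at 88.7, Akr1c12 at 83.0, Akr1c14 at 76.7 and Akr1c6 at 66.7. Akr1c20 lay at percentile 33.0, Akr1c21 at 29.3 and Akr1c18 at 19.3. Of all rows, 36.1% held the value of genes without reads and 33.1% lay above 1 CPM. Per kilobase of coding length, among 14539 coding genes with reads, Akr1c19 lay at percentile 88.3 and Akr1c18 at 20.7.

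**Figure D3:**
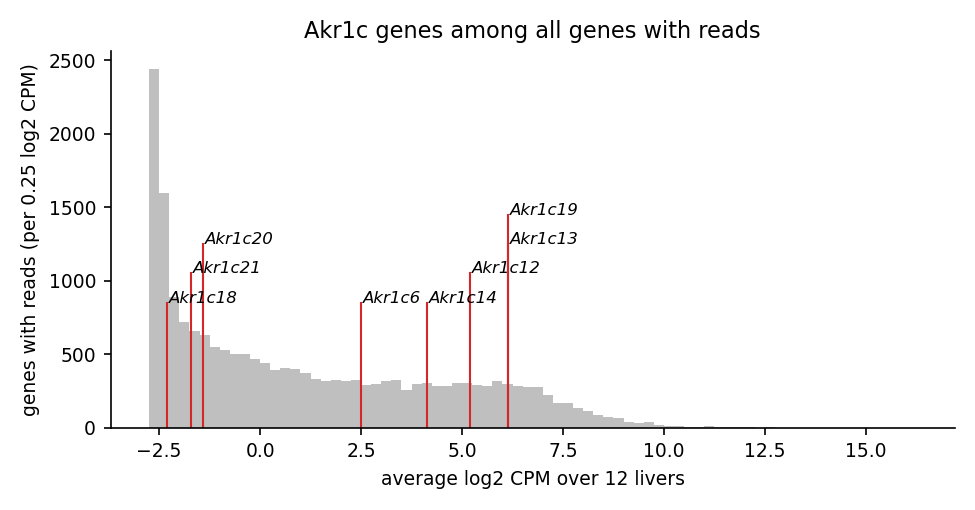
Histogram of the authors' average log2 CPM for the 19652 genes with reads, in steps of 0.25, with a red line at the level of each Akr1c gene. Akr1c18, Akr1c21 and Akr1c20 fall in the peak of genes with few reads at the left, and the other 5 members fall in the flat upper part from 2.50 to 6.14.

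Along the cluster, the 3 highest members were neighbours. The lowest coordinates of Akr1c13, Akr1c19 and Akr1c12 lie 142, 180 and 219 kb from that of Akr1c14, with no other family member between them. For Akr1c12, on the minus strand, this is the end of the gene and not its start. Together these 3 genes held 88.0% of the summed level (a grouping made after the levels were seen). Akr1c18, with the fewest reads, lies between Akr1c14 and Akr1c13, and Akr1c6, Akr1c20 and Akr1c21 lie beyond at 385, 438 and 525 kb. Over the whole table, 33.1% of rows lay above 1 CPM. Of the 31 other genes annotated within 500 kb of the cluster, 10 were in the table and 5 of these lay above 1 CPM. The 3 highest were Net1 at 23.8, Gdi2 at 22.0 and Asb13 at 19.3 CPM, all 131 kb or more outside the cluster, and Ucn3 was listed at the value of genes without reads. Akr1e1, an aldo-keto reductase of another subfamily that lies 4.21 kb beyond Akr1c21, was at 6.14 CPM.

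**Figure D4:**
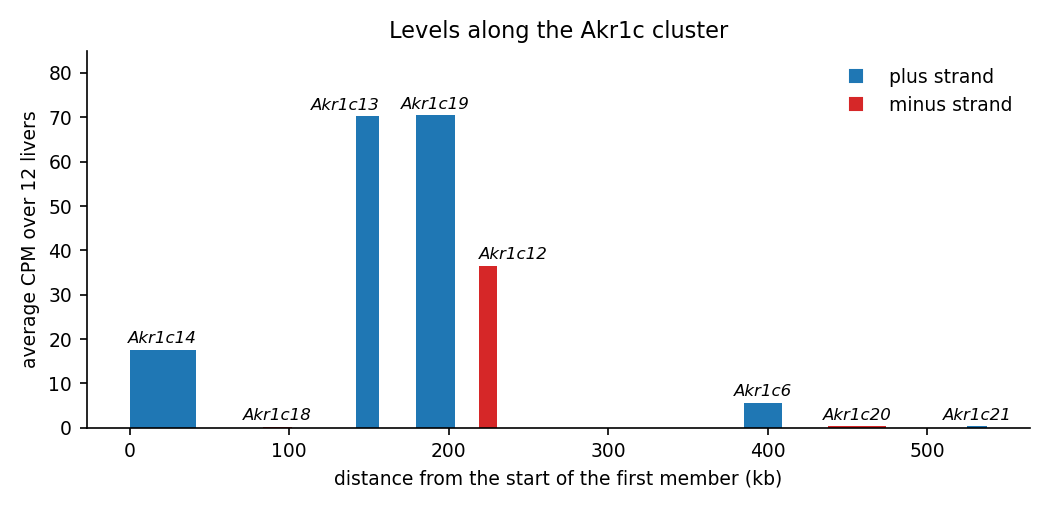
Average CPM over the 12 livers (height of the bars, linear axis from 0) of each Akr1c gene against its distance in kilobases from the start of the first member, bar width giving the gene's extent and colour its strand. Akr1c13, Akr1c19 and Akr1c12 stand side by side with 70.2, 70.5 and 36.5 CPM, and Akr1c18, Akr1c20 and Akr1c21 are barely visible.

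Gene models overlap at 2 members. Exons annotated for Akr1c19 share 291 bases with Marcksl1-ps4, a processed pseudogene listed in the table at 13.4 CPM, and exons of Akr1c14 share 234 bases with Gm18857, an unprocessed pseudogene. The library kit does not keep the strand, so the strand cannot assign reads from such bases to 1 gene. Gm18857 was not found in the table under that symbol. The gene models that the authors counted with are not given in the sources used here, so how such reads were counted is not known. Akr1c19 also has a long annotated transcript, which brings its exons to 5892 bases against 1434 for Akr1c13. Per kilobase of all annotated exons, Akr1c13 lay highest at 49.0, above Akr1c12 at 28.9 and Akr1c19 at 12.0 CPM. The share of the long transcript in these livers is not known here.

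The start regions of the 3 highest members shared a short repeat. Windows before a RefSeq start (GRCm38.p6) were at hand for 7 members, and that of Akr1c20 was not analysed here. For most members the RefSeq start differs from the GENCODE gene limits given above. The windows of Akr1c13, Akr1c12, Akr1c6 and Akr1c18 run into the gene as placed there. Those of Akr1c19 and Akr1c14 lie wholly inside it. The 250 bases before the start are printed for the 3 highest members and, for contrast, for Akr1c6, with the hexamer CATTAG (either strand) in capitals.
Akr1c13 promoter, chr13:4190937-4191186, plus strand: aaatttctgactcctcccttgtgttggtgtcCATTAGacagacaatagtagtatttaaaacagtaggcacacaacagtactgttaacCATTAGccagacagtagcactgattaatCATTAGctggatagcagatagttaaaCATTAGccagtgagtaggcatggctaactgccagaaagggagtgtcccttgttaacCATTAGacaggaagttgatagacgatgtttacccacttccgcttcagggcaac
Akr1c12 promoter, chr13:4279400-4279649, minus strand: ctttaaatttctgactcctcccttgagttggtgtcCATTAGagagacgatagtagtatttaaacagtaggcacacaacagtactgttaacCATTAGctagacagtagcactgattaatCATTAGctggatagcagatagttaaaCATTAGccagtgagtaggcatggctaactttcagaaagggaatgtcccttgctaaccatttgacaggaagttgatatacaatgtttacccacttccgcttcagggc
Akr1c19 promoter, chr13:4233490-4233739, plus strand: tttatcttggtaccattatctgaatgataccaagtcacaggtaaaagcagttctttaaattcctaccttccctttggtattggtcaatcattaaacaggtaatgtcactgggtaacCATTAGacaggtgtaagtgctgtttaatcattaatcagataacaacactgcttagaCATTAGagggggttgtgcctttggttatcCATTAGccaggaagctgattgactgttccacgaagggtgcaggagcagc
Akr1c6 promoter, chr13:4434093-4434342, plus strand: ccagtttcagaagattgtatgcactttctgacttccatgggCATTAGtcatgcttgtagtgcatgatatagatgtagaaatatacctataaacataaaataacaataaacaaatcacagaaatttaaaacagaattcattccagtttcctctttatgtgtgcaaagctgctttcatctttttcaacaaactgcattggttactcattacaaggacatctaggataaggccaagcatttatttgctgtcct
Akr1c13 held 5 copies of CATTAG, Akr1c12 held 4 and Akr1c19 held 3. Akr1c6 and Akr1c21 held 1 each, and Akr1c14 and Akr1c18 none. Of 32536 distinct windows of the same length before annotated starts, 6.33% held at least 1 copy and 8 held 3 or more, of which 3 belonged to the family. The other 5 were Gm34098, Cyp2c39, Fmo9, Gm34385 and Gm51672, and of these Cyp2c39 and Fmo9 were in the table, both at the value of genes without reads. The hexamer was picked after the sequences had been read, and the windows of Akr1c13 and Akr1c12 are near copies, with 235 of 246 aligned bases identical in a local alignment (95.5%). Between Akr1c13 and Akr1c19 the best local alignment ran over 47 bases, of which 41 matched.

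Each of the other motifs searched occurred at most once in a window. The letters TGTTTAC, the core of a FOXA site, occurred once in the windows of Akr1c13, Akr1c12 and Akr1c21 and in 3.17% of all windows. In Akr1c13 and Akr1c12 the match lies before the RefSeq start but inside the gene as GENCODE places it. CCAAT occurred once each in Akr1c14, Akr1c19 and Akr1c6 (33.8% of all windows), and TATAAA once in Akr1c6 (12.3%). None of the 7 windows held TGACNNNGC, the antioxidant response element core (10.2% of all windows), or TTGCNNAA, the core of a C/EBP site (9.57%). All motifs were searched on both strands.

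Relatives outside the family gave the scale of these levels. Over the whole table, 33.1% of rows lay above 1 CPM and 36.1% held the value of genes without reads. Of 9 other aldo-keto reductases, 8 lay above 1 CPM. Per kilobase of coding length the highest were Akr7a5 at 50.3, Akr1d1, the steroid 5-beta-reductase of bile acid synthesis, at 35.2 and Akr1b7 at 20.3 CPM, so that Akr1c19 and Akr1c13 lay above all 9 and Akr1c12 between Akr7a5 and Akr1d1. Among 22 steroid reductases and dehydrogenases in the table, 10 lay above 1 CPM. Hsd17b10, Hsd17b2 and Hsd17b4, the 3 highest, reached 163, 144 and 71.4 CPM per kilobase of coding length. Akr1c19 thus lay next to Hsd17b4, a peroxisomal enzyme of fatty acid oxidation, and below Hsd17b2, which oxidises oestradiol and testosterone. Hsd11b2, Hsd17b3, Hsd17b6, Hsd17b12 and Hsd3b3 were listed at the value of genes without reads, and Hsd17b8 was not found under that symbol. Of 15 carbonyl and quinone reductases and enzymes of dihydrodiol and prostaglandin handling, 7 lay above 1 CPM. None was listed at the value of genes without reads, but Ephx1 at 0.165 and Ephx2 at 0.159 CPM lay close to it. The 3 highest by CPM, given per kilobase, were Hpgd, which inactivates prostaglandins, at 60.0, Ptgr1 at 57.3 and Ptgs1 at 41.6. Per kilobase of coding length, Cbr1 at 49.8 and Nqo1 at 48.7 also lay above Ptgs1.

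Markers of organs that also use Akr1c genes were low for kidney and mixed for the others. Of all rows in the table, 33.1% lay above 1 CPM. Of 8 kidney markers none passed 1 CPM, the highest being Nphs1 at 0.273 CPM, and Umod and Slc12a1 were listed at the value of genes without reads. Of 8 genes of adrenal cortex and gonad 4 lay above 1 CPM, from Cyp11a1 and Hsd3b1 to Fdx1 at 8.37 and Star at 5.42 CPM, while Nr5a1 was listed at the value of genes without reads. Of 12 stomach and intestine markers Fabp2 and Vil1 lay above 1 CPM, at 15.4 and 4.04 CPM, and Gkn2 was listed at the value of genes without reads. Of 12 pancreas markers 5 lay above 1 CPM, led by Cela1 at 13.7, Ctrb1 at 12.5 and Cpa1 at 8.04 CPM. Ins2 was listed at the value of genes without reads. Their part in the Akr1c levels was not tested. Of the blood and stromal lists, 4 of 5 erythroid, 5 of 7 blood progenitor and leukocyte, 4 of 5 macrophage, 4 of 6 endothelial and 5 of 6 mesenchymal markers found in the table lay above 1 CPM.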

How the data were processed

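PolyA-selected RNA of 12 fetal livers (6 control, 6 HFD) was sequenced by the authors on an Illumina sequencer. The processing notes of the authors name cutadapt 1.2.1, Subread 1.3.6-p1 (alignment to mm10) and edgeR. The counting tool, read length and normalization are not given in the sources used here. The authors deposited 1 table, which holds the average log2 CPM over all livers together with fold changes, p-values and adjusted p-values of HFD against control under a common and a tagwise dispersion. The latter are the authors' own comparison and were not used. Without values of single livers, the count test foreseen for the diets was not run.

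Reads were solved from the average log2 CPM with a prior count of 2 for each library. The 1267 rows with 1 read gave a prior count of 2.00, and the floor a mean effective library of 13129752 reads. The solution is approximate at the lowest counts, where the unequal sizes of the libraries enter. Gene models were GENCODE M21 (GRCm38), in which 21063 symbols of the table were found, and promoters RefSeq GRCm38.p6. For each member the transcript with the longest coding sequence, and among these the shortest, was compared with Biopython 1.88 (match 2, mismatch -3, gap opening -20 in coding and -5 in promoter sequence, extension -2). Coding identity replaced the planned protein identity. Shared windows were searched in all GENCODE transcripts, not in the genome. Computations ran in Python 3.11.15 (scipy 1.17.1, pandas 2.3.3, numpy 2.4.6), and plots were drawn with matplotlib 3.10.9.

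Named were all members and, of the lists of relatives, the 3 highest genes by CPM and those without reads. Some other genes of the lists are named as well. Besides the 11 widely expressed genes listed, 1 gene is not reported here. The members and lists were chosen with earlier results of these data known.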

Additional observations from a re-analysis of the deposited data

How the results depend on the processing

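Neither scaling by coding length nor subtracting the floor could change the order of the 8 members. All share the same coding length, and the floor is 1 constant. Per kilobase of all annotated exons, chosen after seeing the data, 5 members took another rank, in the order Akr1c13, Akr1c12, Akr1c19 at the top and with Akr1c21 ahead of Akr1c20, and the share of Akr1c12, Akr1c13 and Akr1c19 in the summed level was 91.1% in place of 88.0%. That share and the number of members above 1 CPM (5) held with the floor subtracted. Among all rows of the table Akr1c20 lay at percentile 57.2, Akr1c21 at 54.8 and Akr1c18 at 48.4, and among rows above 1 CPM Akr1c6 lay at 35.8, since each setting ranks against other genes. The identity of Akr1c12 and Akr1c13 was 96.2% in each alignment. No paired analysis was possible because the result comes from no test. Other tests of the diets (DESeq2, no filter on low counts, leaving out each liver) were not run, as they need values of single livers. Akr1c18, Akr1c20 and Akr1c21 rest on 8 to 35 reads in 12 livers, and what part depth or counting has in this was not tested.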
